A study of Medicago truncatula with 4 samples.

Results

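The auxin transporter genes of *Medicago truncatula* were examined in calli of wildtype R108 plants and of R108 plants overexpressing *MtWOX9-1*. Members were the genes whose deposited description names a type B ABC transporter, an auxin transporter, an auxin efflux or influx carrier or a PIN-FORMED protein, or whose symbol begins with MtPIN and a digit, MtLAX or MtABCB. This gave 52 of the 52709 genes in the tables, namely 10 PIN genes, 5 LAX genes and 37 ABCB genes, which the deposited annotation calls *MtABAB1* to *MtABAB37*. The rule uses names and descriptions and no measured value, although it was written with results of these data known.

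Auxin is moved from cell to cell by 3 carrier families. The AUX1/LAX proteins are permeases that bring auxin into the cell, the PIN-FORMED (PIN) proteins carry it out and give its flow a direction where they sit on one side of the cell, and some ABCB proteins, which are ATP-driven pumps of the P-glycoprotein type, export auxin without such a polarity. Directed auxin flow places organs, vascular strands and the poles of the embryo, and somatic embryogenesis in culture is commonly started with an auxin in the medium. The ABCB name covers pumps of other substrates too, so the annotation alone does not make each *MtABAB* gene an auxin carrier.

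RNA-seq libraries were made from polyA RNA of calli on day 35 of culture, 2 from R108 wildtype plants and 2 from R108 plants with an insertion of the pMDC32 plasmid holding the *MtWOX9-1* coding sequence. pMDC32 is a vector with a constitutive 35S promoter, so the gene is driven in most cell types. Leaf explants were cut from plants grown in soil for 35 days. They were cultured for 30 days with the synthetic auxin 2,4-D at 18 μM and the cytokinin BAP at 2.22 μM. All calli, wildtype included, then spent 5 days without hormones. How many transgenic lines stand behind the 2 overexpressing libraries is not given in the sources used here, and the annotation has no set of marker genes for callus as such, so the tissue label was not checked against any.

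The libraries held between 5241334 and 6666866 counts. With 3 counts as the floor, a gene with 0 counts could still have had up to 0.450 to 0.572 CPM (counts scaled by the library total), depending on the library and for counting error only. *MtWOX9-1*, listed as *MtWOX9b* in the annotation, had 2 and 18 counts in wildtype and 7692 and 7634 counts in overexpressing calli, so this gene went the way the labels say. Normalized counts are counts put on a shared scale by TMM, a scaling that assumes most genes do not change. Fold changes and adjusted p-values were obtained with the two-sided quasi-likelihood test of edgeR, and p-values were adjusted by Benjamini-Hochberg over all 24630 genes tested, and a gene was called at an adjusted p under 0.05. With 2 libraries a group, an exact permutation test of a single gene cannot go below p = 0.333, so each call leans on the spread estimated over all genes. In these bulk libraries, fewer cells of a type and less RNA per cell cannot be told apart.

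In *MtWOX9-1*-overexpressing calli the auxin transporter genes moved in both directions, and so did the members of each family. The influx carrier genes *MtLAX4* and *MtLAX5* and the efflux carrier genes *MtPIN2* and *MtPIN3* rose, while *MtLAX1*, *MtLAX2*, *MtLAX3*, *MtPIN6* and *MtPIN10* fell. Of the 52 genes, 12 had 0 counts in all 4 libraries, 6 had fewer than 10 counts in total, and 34 reached that minimum and were tested. Among the 34, 12 were higher, 9 were lower and 13 were not called. Over all genes tested, 39.2% were called, 20.2% as higher and 18.9% as lower. Of the called members 17 had a fitted absolute log2 fold change over 1. Of all genes tested, 26.1% passed this together with the test. The fitted value is 5.67 for both *MtABAB22* and *MtABAB24*, and 0.87 for both where their 0 counts in wildtype are set to 3. The 7 members named below that reached the minimum through 1 group alone are all among the 17. In 16 members the lower overexpressing library was above the higher wildtype library (39.3% of all genes) and in 12 the order was the other way (35.8%), so that in 28 of 34 the groups did not overlap, beside 75.1% of all genes. For 7 of the 34 the minimum was reached through 1 group alone, and a gene of this kind could hardly be tested without differing. All 7 (*MtPIN6*, *MtPIN7*, *MtLAX3*, *MtABAB11*, *MtABAB12*, *MtABAB22* and *MtABAB24*) were called. Of the other 27, 8 were higher, 6 were lower and 13 were not called, which makes 51.9% called. The 39.2% over all genes tested still holds genes that passed through 1 group alone, so these shares are not of like sets. The median log2 fold change of the 34 genes was 0.35, beside 0.04 over all genes tested. Their median absolute log2 fold change was 0.89, beside 0.62 over all genes, with genes at 0 counts in one group set to 3 counts there.

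**Figure D1:**
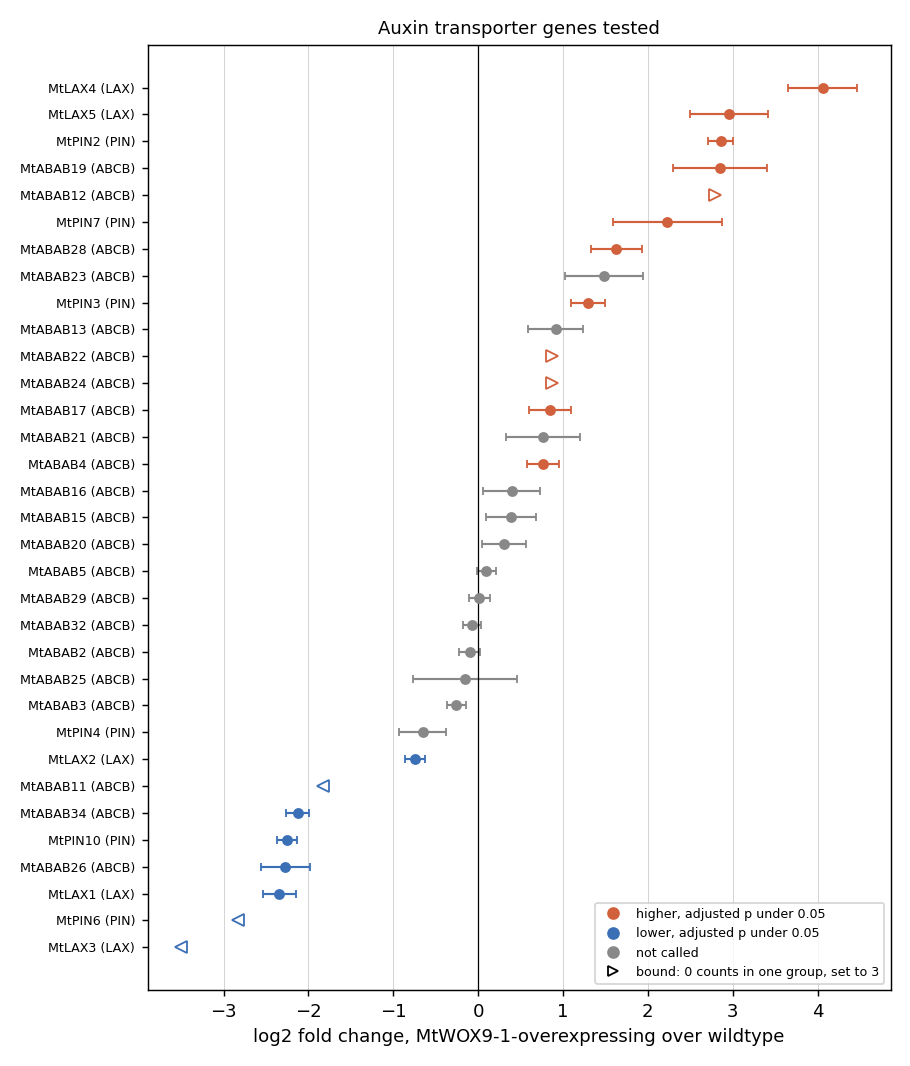
Log2 fold changes (x axis, overexpressing over wildtype calli) of 33 of the 34 auxin transporter genes tested (y axis, family in parentheses). Bars are standard errors, open triangles are bounds for the 6 genes with 0 counts in both libraries of one group, and colours mark the genes called higher (12), lower (8) or not called (13). The LAX genes lie at both ends, from *MtLAX4* at 4.06 to the bound of *MtLAX3*, and the sign of *MtABAB2* and *MtABAB32*, near 0, turns where libraries are scaled by size alone.

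All 5 LAX genes were called, 2 as higher and 3 as lower, beside 39.2% called over all genes tested. *MtLAX3* reached the minimum count through wildtype calli alone. With so few genes the count is not read as a property of the family. *MtLAX2* (MtrunA17Chr7g0241841, chromosome 7), the functional counterpart of Arabidopsis AUX1 and needed for nodule formation, had 1843 and 1559 counts in wildtype and 1274 and 1313 in the overexpressing libraries. In normalized counts it fell from 1930.3 ± 76.3 to 1155 ± 47.0 (SD, n = 2 each), and neither overexpressing library reached the wildtype range. The change on the log2 scale was -0.74 (standard error, SE, 0.12, edgeR adjusted p = 0.010). Without overexpressing replicate 1 the adjusted p was 0.053.

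*MtLAX1* (MtrunA17Chr5g0436811, chromosome 5) fell further, from 787 and 674 counts to 217 and 149 counts. Its normalized counts were 829 ± 25.5 in wildtype and 163 ± 39.8 in overexpressing calli (SD, n = 2 each), a level 5.08-fold lower (log2 fold change -2.35, SE 0.19, edgeR adjusted p = 0.0030). *MtLAX1* and *MtLAX3* are influx carrier genes whose transcripts are known from nodule and lateral root primordia. *MtLAX3* (MtrunA17Chr3g0114951, chromosome 3) was a weakly counted gene, with 17 and 35 counts in wildtype and 0 in both overexpressing libraries. Against the limit of 3 counts per library its mean level was at least 11.3-fold lower in overexpressing calli (edgeR adjusted p = 0.013).

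*MtLAX4* (MtrunA17Chr4g0006031) and *MtLAX5* (MtrunA17Chr4g0037361), both on chromosome 4, went the other way. *MtLAX4* had 7 and 5 counts in wildtype and 99 and 159 counts in overexpressing calli. The lower overexpressing library stood far above the higher wildtype library, and the level was 16.7-fold higher (log2 fold change 4.06, SE 0.40, edgeR adjusted p = 0.0038). *MtLAX5* had 5 and 15 counts in wildtype and 111 and 90 counts in overexpressing calli, giving a log2 fold change of 2.95 (SE 0.46, edgeR adjusted p = 0.0095). The size of the *MtLAX5* rise depends on which wildtype library is used. With wildtype replicate 2 left out it was 4.03 on the log2 scale, and with wildtype replicate 1 left out it was 2.30, and the call stood either way.

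Since *MtLAX2* and *MtLAX1*, the LAX genes with most counts in wildtype, both fell, the summed level of the family was lower in overexpressing calli. The 5 LAX genes together had 2863 and 2754 normalized counts in wildtype and 1498 and 1549 in the overexpressing libraries. Without *MtLAX2*, the sum was 879 and 877 in wildtype and 376 and 360.2 in overexpressing calli. Of the LAX counts, *MtLAX1* took 29.6% and 29.5% in wildtype and 12.8% and 8.71% in the overexpressing libraries. The share of *MtLAX4* and *MtLAX5* was below 1% each in wildtype calli and between 5.26% and 9.29% each in overexpressing calli. These are shares of reads and were not corrected for gene length, so levels of different genes are not compared.

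**Figure D2:**
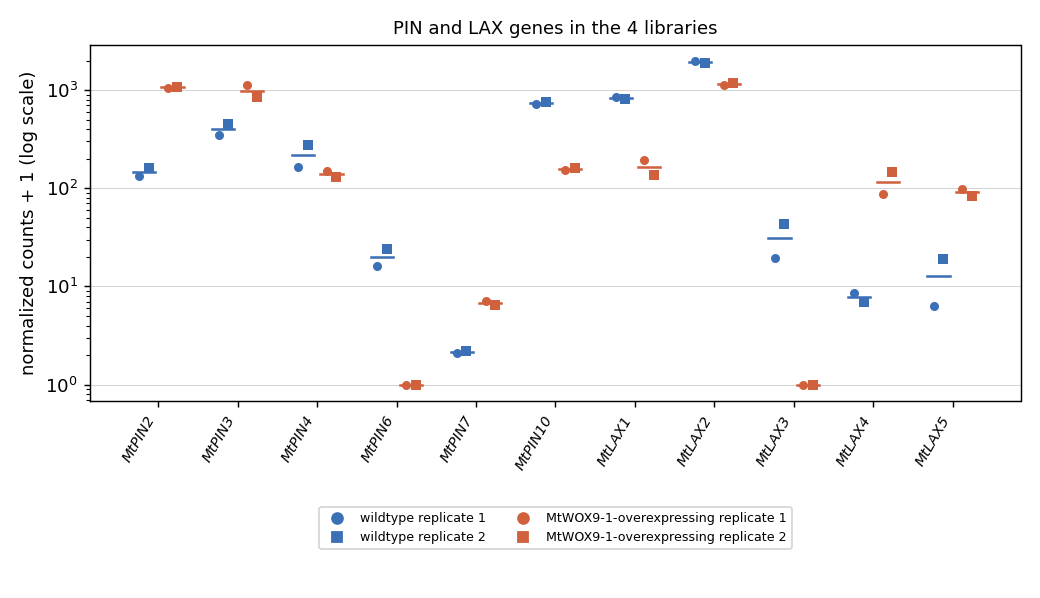
Normalized counts plus 1 (y axis, log scale) of 6 of the 7 PIN genes and all 5 LAX genes tested (x axis) in each library, with wildtype in blue, overexpressing in orange, circles for replicate 1 and squares for replicate 2, and lines for the mean of 2 libraries. In each of the 11 genes plotted the overexpressing libraries lie on one side of the wildtype libraries, as they do in 75.1% of all genes tested. *MtPIN6* and *MtLAX3* lie at 0 counts in both overexpressing libraries.

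Among the PIN genes, 7 of 10 were tested, 3 were higher, 3 were lower and *MtPIN4* was not called. *MtPIN2* (MtrunA17Chr4g0071571, chromosome 4) had 123 and 134 counts in wildtype and 1189 and 1191 counts in the overexpressing libraries. Arabidopsis PIN2 is known for carrying auxin away from the root tip through its outer cell layers, in the response of roots to gravity. The normalized counts of *MtPIN2* were 147 ± 20.4 in wildtype and 1063 ± 21.8 in overexpressing calli (SD, n = 2 each), a 7.24-fold rise (log2 fold change 2.86, SE 0.15, 95% interval 2.48 to 3.23, edgeR adjusted p = 0.0025). Over the alternatives tried its log2 fold change lay between 2.72 and 3.01.

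*MtPIN10* (MtrunA17Chr7g0255941, chromosome 7) went in the opposite direction. It is also known as SMOOTH LEAF MARGIN1 and shapes leaves and flowers. It had 672 and 628 counts in wildtype and 173 and 175 counts in overexpressing calli. In normalized counts it fell from 739.7 ± 22.9 to 155 ± 4.27 (SD, n = 2 each), a 4.76-fold lower level (log2 fold change -2.25, SE 0.11, edgeR adjusted p = 0.0025). The make-up of the PIN reads shifted between these genes. *MtPIN10* took 40.8% and 37.0% of PIN counts in wildtype and 5.61% and 6.59% in the overexpressing libraries. *MtPIN2* took 7.46% and 7.90% in wildtype and 38.6% and 44.8% in overexpressing libraries.

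*MtPIN3* (MtrunA17Chr1g0160461, chromosome 1) had 324 and 375 counts in wildtype and 1263 and 937 in overexpressing calli. Its rise was smaller than that of *MtPIN2* on the log2 scale, at 1.29 (SE 0.20, edgeR adjusted p = 0.0098). In normalized counts it went from 400.1 ± 72.5 to 980.2 ± 187 (SD, n = 2 each), so its spread between replicates was also wider.

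*MtPIN4* (MtrunA17Chr6g0478431, chromosome 6) had 151 and 229 counts in wildtype and 169 and 142 in overexpressing calli. Its log2 fold change of -0.65 (95% interval -1.37 to 0.06, edgeR adjusted p = 0.13) did not pass the threshold. The wildtype libraries differed by more than the groups' nearest libraries, and the value turned on which was used. The log2 fold change was -0.99 (adjusted p = 0.021) with wildtype replicate 1 left out and -0.23 (adjusted p = 0.45) with wildtype replicate 2 left out. The interval does not show that *MtPIN4* stayed level.

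Several PIN genes had few or no reads. *MtPIN6* (MtrunA17Chr1g0159341, chromosome 1), whose Arabidopsis namesake sits partly in the endoplasmic reticulum, had 14 and 19 counts in wildtype and 0 in both overexpressing libraries. This is a mean level at least 7.08-fold lower against 3 counts per library (edgeR adjusted p = 0.0099). *MtPIN7* (MtrunA17Chr4g0071551) had 1 count in each wildtype library and 7 and 6 counts in the overexpressing libraries. The ratio of the summed counts, scaled by effective library size, was 5.11 with an exact 95% counting interval of 1.16 to 46.6. Its call (edgeR adjusted p = 0.047) was lost in 5 of the 9 alternatives that gave it a new p-value, with DESeq2 giving an adjusted p of 0.41. *MtPIN5*, *MtPIN8* and *MtPIN9* had 0 counts in each of the 4 libraries, and at this depth a level under the limit given above could have been missed.

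Summed over the family, the PIN genes had 1775 and 2041 normalized counts in wildtype and 2714 and 2405 in overexpressing calli. This higher sum rested on *MtPIN2* and *MtPIN3*. Without *MtPIN2* the sums were 1643 and 1879.95 in wildtype and 1667 and 1327 in overexpressing calli, so the groups overlapped. Without *MtPIN3* they overlapped too, with 1427 and 1589.89 in wildtype against 1602 and 1557 in overexpressing calli.

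**Figure D3:**
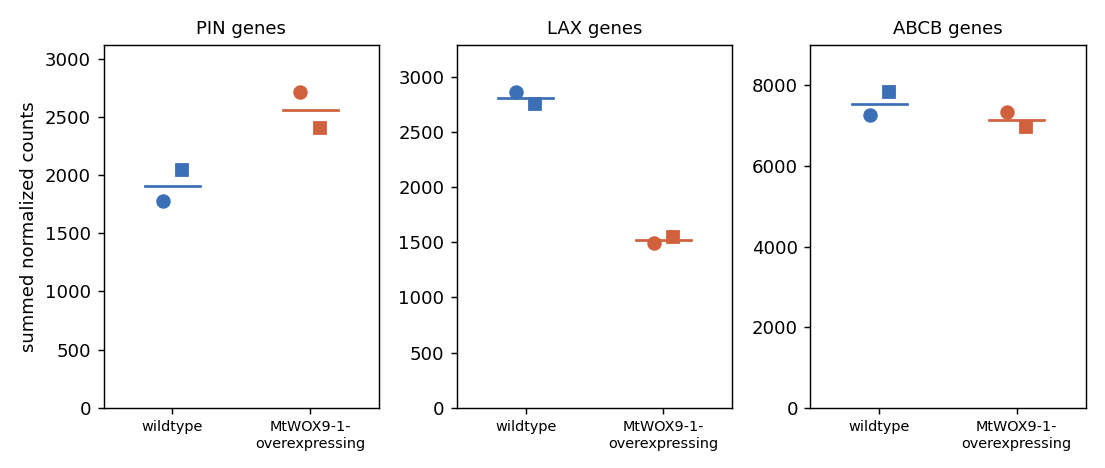
Summed normalized counts (y axis, starting at 0) of the PIN, LAX and ABCB genes in the 2 wildtype (blue) and 2 overexpressing (orange) libraries, with circles for replicate 1, squares for replicate 2 and lines for the means. The sum of the LAX genes is lower in both overexpressing libraries, that of the PIN genes is higher, and that of the ABCB genes, *MtABAB34* included, overlaps between the groups.

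Among the ABCB genes, 22 of 37 were tested, 7 were higher, 3 were lower and 12 were not called. The share called was 45.5%, near the 39.2% of all genes tested, and is not read as a property of the family. The summed ABCB level was 7254 and 7835 normalized counts in wildtype and 7333 and 6964 in overexpressing calli, with no separation of the groups. This overlap rested on *MtABAB34*, without which the sums were 5422 and 6157 in wildtype, below the 6905 and 6587 of overexpressing calli. Of the 15 ABCB genes not tested, 9 had 0 counts in each library (*MtABAB1*, *MtABAB7*, *MtABAB8*, *MtABAB10*, *MtABAB14*, *MtABAB30*, *MtABAB33*, *MtABAB36* and *MtABAB37*), and *MtABAB6*, *MtABAB9*, *MtABAB18*, *MtABAB27*, *MtABAB31* and *MtABAB35* had between 2 and 9 counts in total.

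*MtABAB34* (MtrunA17Chr7g0264631, chromosome 7) held the largest fall in normalized counts of the ABCB genes, from 1702 and 1394 counts in wildtype to 485 and 416 counts in overexpressing calli. The level was 4.37-fold lower (1755 ± 109 against 402 ± 35.8 normalized counts, SD, n = 2 each, log2 fold change -2.13, SE 0.14, edgeR adjusted p = 0.0026). It took 25.3% and 21.4% of the ABCB counts in the wildtype libraries but 5.83% and 5.41% in the overexpressing libraries. *MtABAB26* (MtrunA17Chr6g0452111, chromosome 6) fell from 75 and 48 counts to 18 and 14 counts (log2 fold change -2.27, SE 0.29, edgeR adjusted p = 0.0059). *MtABAB11* (MtrunA17Chr3g0128391, chromosome 3) had 11 and 6 counts in wildtype and 0 in both overexpressing libraries, a mean level at least 3.56-fold lower (edgeR adjusted p = 0.018). With DESeq2 its adjusted p was 0.063, so of the 3 falls this is the least firm.

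Of the ABCB genes that rose, *MtABAB19* (MtrunA17Chr5g0410921, chromosome 5) changed most among those counted in both groups, from 20 and 70 counts in wildtype to 490 and 352 in overexpressing calli. Its log2 fold change was 2.85 (SE 0.55, edgeR adjusted p = 0.016). The wildtype libraries differed widely, and leaving out wildtype replicate 2 gave 4.12 on the log2 scale, while leaving out wildtype replicate 1 gave 2.15. The adjusted p was 0.064 without overexpressing replicate 1. *MtABAB12* (MtrunA17Chr3g0138211, chromosome 3) had 0 counts in both wildtype replicates and 27 and 26 in the overexpressing libraries, a mean level at least 6.92-fold higher against 3 counts per library (edgeR adjusted p = 0.0067). This was the 1 ABCB gene with 0 counts in wildtype calli whose call stood in all 12 alternatives that gave new p-values. The alternatives keep these 0 counts, so that the call stood adds little.

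*MtABAB17* (MtrunA17Chr4g0069401, chromosome 4) had 579 and 806 counts in wildtype and 1781 and 1433 in overexpressing calli. Its log2 fold change of 0.85 (SE 0.25, edgeR adjusted p = 0.049) lay at the threshold, and the call was lost in 7 of the 12 alternatives. *MtABAB4* (MtrunA17Chr1g0194031, chromosome 1) had 40 and 36 counts in wildtype and 90 and 75 in overexpressing calli, giving a log2 fold change of 0.77 (SE 0.19, edgeR adjusted p = 0.030). Its call was lost in 6 alternatives, with an adjusted p of 0.24 from DESeq2. Both are thus weaker calls than those of *MtABAB34* and *MtABAB26*, which stood in each alternative.

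The 5 ABCB genes with most reads among those not called had narrow intervals. *MtABAB3* (MtrunA17Chr1g0193991) had 1756 and 1609 counts in wildtype and 1802 and 1783 counts in overexpressing calli, giving a log2 fold change of -0.26 (95% interval -0.55 to 0.04, edgeR adjusted p = 0.14). *MtABAB5* (MtrunA17Chr1g0212701) had 895 and 839 counts in wildtype and 1219 and 1144 in overexpressing calli, giving a log2 fold change of 0.10 after scaling (95% interval -0.19 to 0.39, adjusted p = 0.54). For both genes, the interval leaves out a log2 fold change of 1 and of -1.

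*MtABAB29* had 573 and 577 counts in wildtype and 752 and 733 in overexpressing calli, with a 95% interval of the log2 fold change from -0.29 to 0.32. *MtABAB32* had 440 and 398 counts in wildtype and 507 and 508 in overexpressing calli, with an interval from -0.35 to 0.20. *MtABAB2* had 388 and 325 counts in wildtype and 400 and 445 in overexpressing calli, with an interval from -0.43 to 0.23. For these genes no direction is given, since the sign of *MtABAB2* and *MtABAB32* turned with library size as the only scaling and that of *MtABAB29* without wildtype replicate 1. The 7 other ABCB genes not called (*MtABAB13*, *MtABAB15*, *MtABAB16*, *MtABAB20*, *MtABAB21*, *MtABAB23* and *MtABAB25*) had means between 3.79 and 145 normalized counts and adjusted p-values between 0.057 and 0.88. Of these, *MtABAB23* lay nearest to the threshold.

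**Figure D4:**
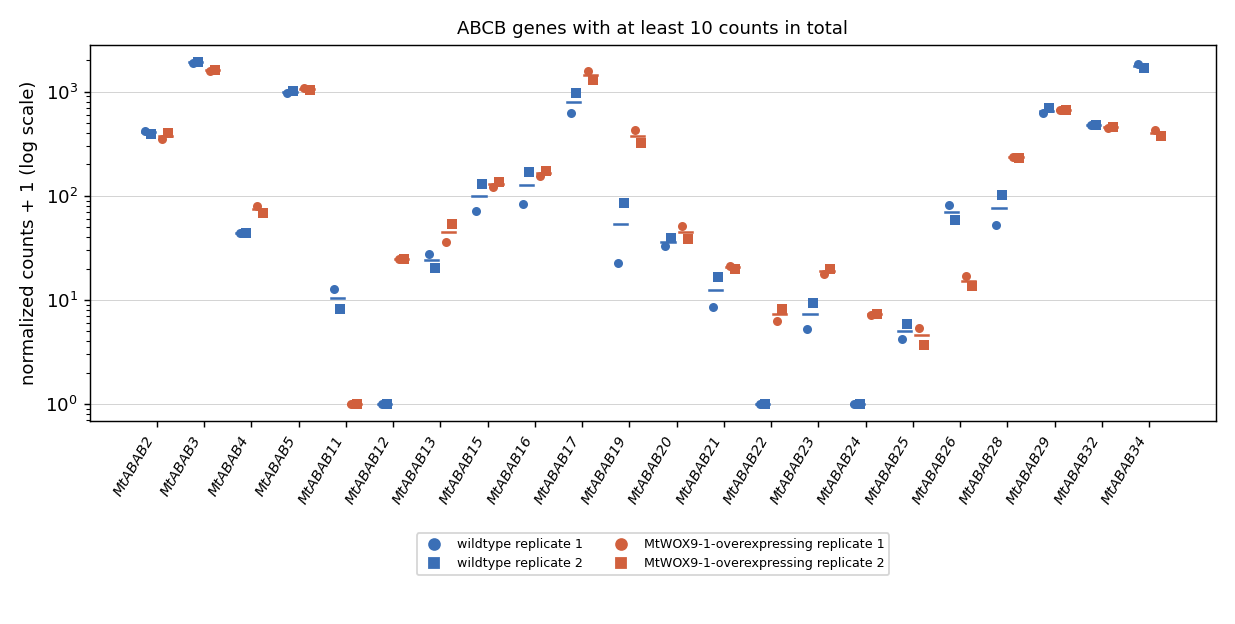
Normalized counts plus 1 (y axis, log scale) of the 22 ABCB genes tested (x axis) in each library, with colours and symbols as for the PIN and LAX genes and lines for the mean of 2 libraries. *MtABAB34* is lower and *MtABAB19* higher in both overexpressing libraries, while *MtABAB12*, *MtABAB22* and *MtABAB24* lie at 0 counts in both wildtype libraries.

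Several members lie beside each other in the genome, as far as the order of their IDs shows. Taking members on a chromosome with at most 20 other IDs between them, 21 genes formed 6 groups. Start and end positions were not used here, and how reads that fit several copies were counted is not given in the sources used here, so values of such neighbours may share reads.

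The longest of these groups has 8 ABCB genes, *MtABAB21* to *MtABAB28*, on chromosome 6. Of them 3 were higher, 1 was lower, 3 were not called and 1 had too few counts to be tested. *MtABAB28* (MtrunA17Chr6g0452171) had 48 and 83 counts in wildtype and 269 and 253 counts in overexpressing calli (log2 fold change 1.63, SE 0.30, edgeR adjusted p = 0.015). Without overexpressing replicate 1 its adjusted p was 0.059. *MtABAB26*, described above as lower in overexpressing calli (69.3 ± 16.2 against 14.3 ± 2.25 normalized counts, SD, n = 2 each), comes after *MtABAB25* in the order of IDs, a gene with 3 to 5 counts in each library.

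Small counts mark the rest of the chromosome 6 group. *MtABAB22* had 0 counts in both wildtype replicates and 6 and 8 counts in the overexpressing libraries, at least 1.83-fold higher on the means (edgeR adjusted p = 0.026). *MtABAB24* had 0 counts in both wildtype replicates and 7 in each overexpressing library, at least 1.83-fold higher as well (edgeR adjusted p = 0.024). Both calls were lost with DESeq2, at an adjusted p of 0.20. *MtABAB27* had 9 counts in overexpressing replicate 1 and 0 in the 3 other libraries, so it was not tested. The summed level of the 8 genes was 148 and 187 normalized counts in wildtype and 314 and 296 in overexpressing calli. In the overexpressing libraries the sum rests mostly on *MtABAB28*, with 237 and 229. In wildtype, *MtABAB26* gave 80.7 and 57.8 of it and *MtABAB28* 51.7 and 99.9.

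**Figure D5:**
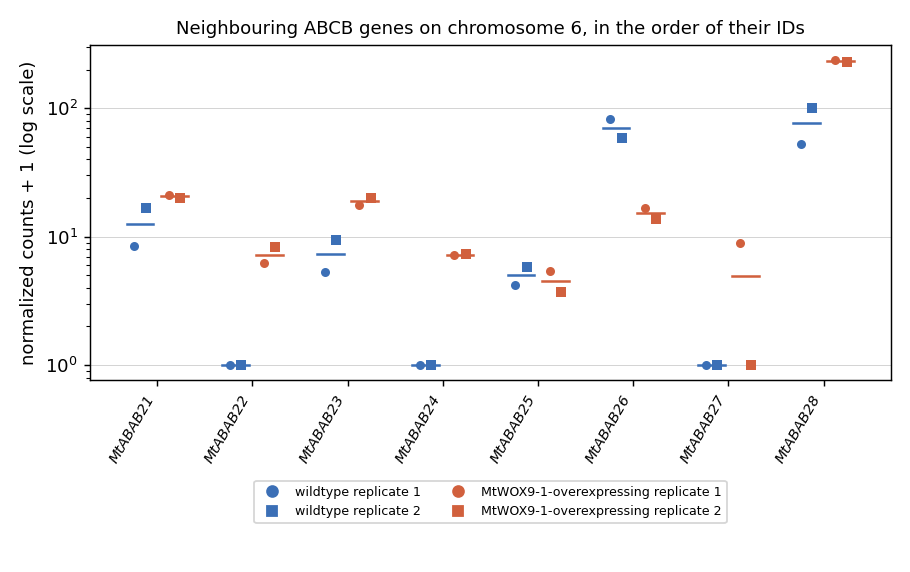
Normalized counts plus 1 (y axis, log scale) of the 8 neighbouring ABCB genes on chromosome 6 in the order of their IDs (x axis), with colours and symbols as for the PIN and LAX genes and lines for the mean of 2 libraries. The gene *MtABAB26* is lower in both overexpressing libraries, and *MtABAB22*, *MtABAB24* and *MtABAB28* are higher in both.

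A second ABCB group on chromosome 4 holds *MtABAB15* to *MtABAB18*. *MtABAB15* had 65 and 106 counts in wildtype and 138 and 150 in overexpressing calli. *MtABAB16*, its next ID, had 77 and 139 counts in wildtype and 175 and 192 in overexpressing calli. The pair was alike in its ratio of replicate 2 to replicate 1, with 1.82 and 2.02 in wildtype and 1.12 and 1.13 in overexpressing libraries. Neither was called, and their values turned on which wildtype library was used. Without wildtype replicate 2 the log2 fold changes were 0.88 and 0.99 (adjusted p = 0.038 and 0.026), and without wildtype replicate 1 they were 0.011 and -0.031 (adjusted p = 0.98 and 0.93). *MtABAB18* had 3 counts in overexpressing replicate 1 and 0 elsewhere. *MtPIN7* and *MtPIN2* are separated by 1 other ID, also on chromosome 4, and both were higher, *MtPIN7* with 13 counts in the overexpressing libraries together. The pairs and groups on chromosomes 2 and 8 (*MtABAB6* to *MtABAB8*, *MtABAB36* and *MtABAB37*) had at most 2 counts for a gene in a library.

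For many of the members the wildtype libraries differed between themselves. Of the 31 tested members counted in both wildtype libraries, 11 had a level in replicate 2 more than 1.5 times that in replicate 1 (35.5%), beside 9.98% of all genes tested and counted there. These shares were not matched for count level. Some of the 11 have few counts, such as *MtLAX5*, or are neighbours that may share reads, such as *MtABAB15* and *MtABAB16*. The ratio was 3.91 for *MtABAB19*, 3.35 for *MtLAX5*, 2.30 for *MtLAX3* and 1.70 for *MtPIN4*. For *MtPIN2* it was 1.22 and for *MtPIN10* 1.04.

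Other genes of the auxin pathway, taken by keyword and symbol from the same annotation, give the setting of these changes. Of 40 such genes 27 were tested, 16 were higher and 2 were lower, with 9 not called, beside 20.2% higher and 18.9% lower over all genes tested. Of the 8 synthesis genes (tryptophan aminotransferases and YUCCA monooxygenases, which make auxin from tryptophan in sequence) 6 were tested, 5 were higher and 0 were lower. Of the 6, 4 reached 10 counts through overexpressing calli alone and 3 of these were among the 5, so the count says little by itself. *MtYUC3* and *TAA-2*, the other called genes, had 0 counts in wildtype replicate 1 and 16 and 11 in replicate 2. *TAA-1*, a tryptophan aminotransferase gene, had 0 counts in both wildtype replicates and 74 and 52 in overexpressing calli, at least 16.4-fold higher (edgeR adjusted p = 0.0046). *MtYUC9* had 0 counts in both wildtype replicates and 19 and 43 in overexpressing calli, at least 8.14-fold higher (edgeR adjusted p = 0.016).

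Of the 25 auxin response factor genes, which encode the transcription factors at the end of the pathway, 14 were tested, 8 were higher and 6 were not called. Of all genes tested, 20.2% were higher. *MtARF1*, also listed as *MtARF16a*, had 11 and 20 counts in wildtype and 471 and 380 in overexpressing calli (log2 fold change 4.41, SE 0.30, edgeR adjusted p = 0.0026). *MtARF11* had 28 and 37 counts in wildtype and 255 and 192 in overexpressing calli (log2 fold change 2.42, SE 0.25, adjusted p = 0.0041). Both were thus low in wildtype calli and several times higher in overexpressing calli, with no overlap.

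Of the 2 receptor genes (auxin signaling F-box), *AFB-like1* was higher, with a log2 fold change of 2.23 (SE 0.16, edgeR adjusted p = 0.0026), and the other was not called. Of the 2 Aux/IAA genes, which encode repressors of the response factors, *AtSHY2-like* was higher (log2 fold change 1.08, adjusted p = 0.0052) and *MtIAA7* lower (log2 fold change -1.47, adjusted p = 0.026). The GH3 enzymes join auxin to amino acids. *MtGH3* was higher (log2 fold change 0.65, edgeR adjusted p = 0.017) and *MtGH3.1* lower, with 12995 and 12804 counts in wildtype and 6631 and 9193 in overexpressing calli (log2 fold change -1.05, adjusted p = 0.019). The 1 SAUR gene was not called, and no gene matched the terms for PIN-LIKES proteins or for the kinases and partners of the PIN proteins.

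Marker genes of several tissues moved with the groups, and their part in the values above was not tested. The 16 genes taken by keyword or symbol for root cap and root tip had summed levels of 104 and 567 normalized counts in wildtype and 12694 and 16722 in overexpressing libraries. The PLETHORA genes are among them, also *MtPLT4*, listed as *MtBBM* too, and whether the list marks root tip in these calli was not tested. In wildtype replicate 1, 9 of the 16 were at 0, among them *MtPLT1*, *MtPLT2* and *MtFEZ*, and in wildtype replicate 2 only *MtRC4* was at 0. Of the 16, 15 were called higher and 0 lower. For the PIN and LAX genes called higher, the ratio of wildtype replicate 2 to replicate 1 differed. It was 3.35 for *MtLAX5*, 1.29 for *MtPIN3*, 1.22 for *MtPIN2*, 1.12 for *MtPIN7* and 0.80 for *MtLAX4*. Both LAX genes and *MtPIN7* had few wildtype counts. Whether these genes, or the other members called higher, follow the markers was not tested.

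The 6 vascular and cambial genes had 4761 and 3889 normalized counts in wildtype and 468 and 442 in overexpressing libraries. All 5 that were tested were lower, beside 18.9% of all genes tested, and *MtVND4* was at 0 in all 4 libraries. *VND7-like*, with 4 and 6 counts in wildtype and 0 in both overexpressing libraries, reached 10 counts through wildtype calli alone. Whether any of the 9 members called lower follows the vascular and cambial list was not tested. The terms for shoot meristem matched 11 genes of the KNOX homeobox family, of which only the class I members are known as shoot meristem regulators. *MtKNOX1* and *MtKNOX8* had 0 counts in both wildtype replicates and 5 in each overexpressing library, and *MtFCL1* had 0 in both overexpressing libraries. These genes reached 10 counts through 1 group alone, so their calls say little. *MtKNOX1*, *MtKNOX7* and *MtKNOX8* were higher, and *MtKNOX2*, *MtKNOX3*, *MtKNOX4*, *MtKNOX5*, *MtKNOX9* and *MtFCL1* were lower. The list was therefore not read as one marker of shoot meristem, and its sum (2826 and 2074 in wildtype, 579 and 613 in overexpressing libraries) came mostly from *MtKNOX3*, *MtKNOX4*, *MtKNOX5* and *MtKNOX9*. The 4 embryo genes summed to 284 and 262 in wildtype and 1097 and 1061 in overexpressing libraries, with 3 higher and 1 lower. Of those higher, *MtPM25* and *MtLEA4-5* had 0 counts in both wildtype replicates and reached 10 counts through overexpressing calli alone. No gene matched the terms for leaf mesophyll, so remains of the leaf explant were not looked for.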

How the data were processed

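The authors deposited whole-number counts per gene and library for 52709 genes of MtrunA17r5.0-ANR. The submitters' processing notes name Trimmomatic, HISAT2, StringTie and DESeq. Versions, strand and the treatment of multiply mapped reads are not given in the sources used here. A deposited annotated table gave symbols for 3772 genes and descriptions for 3784. The authors made its normalized signal by multiplying each count with 1 constant per library before they deposited it, and this signal was used only to check the counts. The authors' p-values and fold change scores in that deposited table were not used, and 0 per-sample columns were left unused. Column names equal the sample descriptions.

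Genes with at least 10 counts in total were tested in R 4.3.3 with edgeR 4.0.16 (TMM factors between 0.937 and 1.06, quasi-likelihood test on condition, prior count 0.125). The common dispersion was 0.0284. Standard errors and 95% intervals were taken from the test statistic. A bound compares the mean of one group with 3 counts in each library of the other. The alternatives were DESeq2 1.42.0, its size factors in edgeR, library size alone, filterByExpr, a minimum of 1 count, a prior count of 2, a replicate block, limma 3.58.1 (log2 scale, pseudocount 1 or 0.5), leaving out each library, and stricter calls (adjusted p under 0.01, or log2 fold change beyond 1 in size). Fits were tested on simulated data.

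Named with values were PIN and LAX genes with at least 10 counts (1 PIN gene, called lower, is counted in the totals and sums but not reported here), the called ABCB genes and the 5 most counted of the others, and in each pathway list at most 2 called genes with the largest change. The neighbour groups and the ratios between replicates were described after the values were seen, as were the genes named within them. Members and lists were chosen with earlier results of these data known. The labels call the replicates biological, and p-values set the group difference against a spread estimated from these samples over all genes. How far this spread covers differences between transgenic lines is not known. Replicates differed by more than sampling noise, with chi-square divided by its degrees of freedom at 7.25 in wildtype and 8.24 in overexpressing libraries. Gene IDs were not matched to sequences, coordinates or lengths.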

Additional observations from a re-analysis of the deposited data

How the results depend on the processing

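Of the 21 calls among the auxin transporters, 11 stood in all 12 alternatives that give genes a new p-value, which a prior count of 2 does not (*MtPIN2*, *MtPIN3*, *MtPIN6*, *MtPIN10*, *MtLAX1*, *MtLAX3*, *MtLAX4*, *MtLAX5*, *MtABAB12*, *MtABAB26* and *MtABAB34*), and none of the 21 changed direction where a value was given. The 12 higher and 9 lower calls became 7 and 8 with the replicate block, where 6668 genes were called over all in place of 9645. The labels do not say that same-numbered libraries share a batch, so the numbers were not taken as pairs in the main fit. Same-numbered libraries did not deviate together (correlation -0.026 over 14400 genes), which does not speak for each single gene. At an adjusted p under 0.01 there were 5 higher and 5 lower calls, and 3930 over all genes. With 1 library left out, higher calls ran from 5 (without overexpressing replicate 1) to 13, lower calls from 8 to 9 and calls over all genes from 5631 to 8323. DESeq2 gave 8 higher and 8 lower calls and 6442 over all genes. Library size as the only scaling moved the median log2 fold change of all genes from 0.04 to 0.18.

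Signs turned in 5 genes, none of them called. *MtABAB2* had a log2 fold change of 0.040 and *MtABAB32* 0.066 with library size as the only scaling. With 1 library left out, *MtABAB16* ran from -0.031 (without wildtype replicate 1) to 0.99, *MtABAB29* from -0.068 (without wildtype replicate 1) to 0.11 and *MtABAB25* from -0.53 to 0.14 (without wildtype replicate 2). The cause of these changes was not tested. Depth limits the genes under 10 counts in total, which the main fit did not test, so nothing is said of differences in them.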
